A study of Mus musculus with 3 samples.

Results

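Cathepsins are the proteases of the endosome and lysosome, and cystatin C (Cst3) is a secreted inhibitor of those that use a cysteine in their active site. The 10 genes described here were chosen by symbol: the 7 cysteine cathepsins Ctsb, Ctsc, Ctsh, Ctsk, Ctsl, Ctss and Ctsz, the aspartic protease Ctsd, the serine carboxypeptidase Ctsa, and Cst3. All 10 were among the 34591 gene symbols of the count table. They were measured by mRNA sequencing in the mouse mammary carcinoma cell line 4T1 with genotype WISP2 OE (over-expression of WISP2, a secreted matricellular protein), as 1 group of 3 libraries, here C1, C2 and C3. The labels' protocol describes packaged vectors and puromycin selection for Wisp1 constructs, and does not give the WISP2 construct, or whether the cells were a pool or a clone. The empty-vector 4T1 cells named in the design text were not analysed here, so the values describe levels and their spread in over-expressing cells, not an effect of WISP2.

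Cathepsins are made as inactive precursors, tagged with mannose 6-phosphate in the Golgi apparatus and carried to the lysosome, where the acidic pH and other proteases activate them. Tumour cells also secrete part of them, and outside the cell they can cleave collagen, laminin and fibronectin. Cystatin C binds the open active site of the cysteine cathepsins in the extracellular space, whereas cystatin B (Cstb) does so in the cytosol. Neither acts on the aspartic or the serine enzymes.

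C1 held 17630755 counts, C2 67028365 and C3 47577315. Wisp2 itself had 429 CPM (counts in each 1000000 of the library total) in C1, against 384 CPM for C2 and 454 CPM for C3; these counts do not separate the introduced from the endogenous gene. Levels are given in CPM, with mean ± SD over 3 libraries. Nothing in the labels says that the libraries came from separate cultures, so the spread may be technical. The labelled cell type was checked against marker lists: 5 of 5 epithelial markers reached 1 CPM in every library, against 0 of 6 fibroblast, 0 of 4 endothelial and 2 of 9 leukocyte markers. The epithelial keratin Krt8 averaged 1077 ± 80.8 CPM. These are bulk libraries, in which fewer cells of a type and less RNA per cell cannot be told apart.

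Of the 10 genes 9 reached 1 CPM in every library, a level reached by 33.8% of all symbols, and 4 exceeded 100 CPM. Cathepsin L, an endopeptidase and the main excreted protein of transformed mouse fibroblasts, had 751 (C1), 727 (C2) and 869.9 CPM (C3). Its mean of 783 ± 76.6 CPM lay above 99.0% of the genes at 1 CPM or more by CPM and above 96.1% per exon length, and 117 genes had a higher mean CPM. Cathepsin B, an endopeptidase that also removes dipeptides from the C-terminus, had 239 (C1), 237 (C2) and 241 CPM (C3). Its libraries were nearly equal (239 ± 1.74 CPM), with exact 95% counting intervals that overlapped throughout.

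Cathepsin Z, a carboxypeptidase that trims single residues and carries an integrin-binding sequence in its propeptide, had 145 (C1), 139 (C2) and 156 CPM (C3). Cathepsin H, an aminopeptidase, had 76.0 (C1), 71.0 (C2) and 91.2 CPM (C3). In both genes C3 was highest and C2 lowest. Cathepsin C, the dipeptidyl peptidase that activates the serine proteases of leukocyte granules, had 30.2 (C1), 31.8 (C2) and 32.1 CPM (C3), with overlapping counting intervals.

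The remaining pair of cysteine cathepsins stood near the detection limit. Cathepsin S, which stays active at neutral pH and processes the invariant chain in antigen-presenting cells, had 2.21 (C1), 1.01 (C2) and 1.16 CPM (C3), from 39, 68 and 55 counts, so it only just reached 1 CPM in C2. Cathepsin K, the collagenase of osteoclasts, had 2, 7 and 2 counts in C1, C2 and C3, or 0.113, 0.104 and 0.0420 CPM, and alone among the 10 genes did not pass the filter on low counts. Summed over the libraries Ctss had 162 counts and Ctsk 11, a ratio of counts of 14.7 (exact 95% counting interval 8.02 to 30.1). Per exon length Ctss was 16.4-fold Ctsk on average over the libraries. At 11 counts no difference in Ctsk between the libraries was detectable.

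Cathepsin D, the aspartic endopeptidase, had 174 (C1), 175 (C2) and 186 CPM (C3). Cathepsin A, the serine carboxypeptidase that also holds beta-galactosidase (Glb1) and neuraminidase 1 (Neu1) in a stable complex, had 51.6 (C1), 53.0 (C2) and 57.1 CPM (C3). In both genes C3 was highest, and for Ctsd its interval of 182 to 190.0 CPM lay above the other two. Cystatin C had 76.2 (C1), 70.4 (C2) and 83.2 CPM (C3), a mean of 76.6 ± 6.42 CPM, and its C3 interval also lay above the other two.

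**Figure D1:**
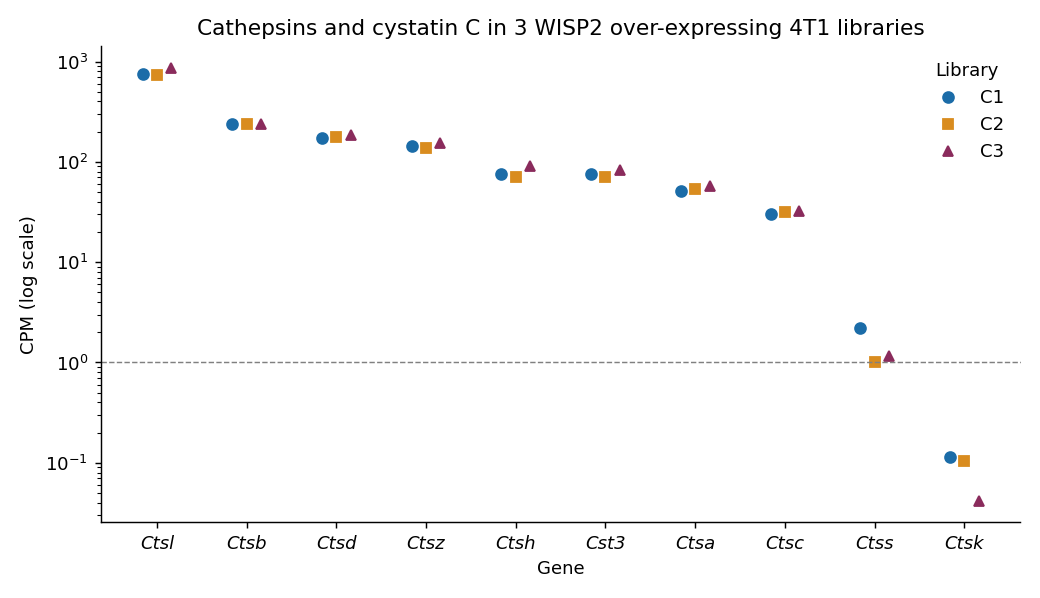
CPM (log axis) of the 9 cathepsins and Cst3, most abundant first, with 1 point for each of the libraries C1, C2 and C3 and a dashed line at 1 CPM. Ctsl stands highest at 783 CPM on average, 8 genes lie above 30 CPM, Ctss lies just above the line, and Ctsk lies below it in every library.

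CPM grows with transcript length, so the genes were ordered by length-normalised level: counts divided by length and scaled to 1000000 over all genes with a length. Divided by the full annotated exon length, Ctsl stood at 356 ± 33.9, Ctsz at 300.4 ± 16.4, Ctsd at 224 ± 8.01, Cst3 at 179 ± 14.4 and Ctsb at 117 ± 0.505 (SD, n = 3). Below them were Ctsh at 52.1 ± 6.73, Ctsa at 33.8 ± 1.77, Ctsc at 15.9 ± 0.532, Ctss at 3.18 ± 1.42 and Ctsk at 0.169 ± 0.0761. No pair of neighbours in this order overlapped between libraries.

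The choice of length changed the order below Ctsl. Exon length counts every annotated exon of a gene, and for Ctsl it is 6489 bases, against 1971 bases for its main coding transcript and 1002 bases of coding sequence. By main coding transcript Ctsl stood at 968 ± 93.7, and by coding length at 899 ± 87.9. Ctsb was the fifth of the 10 genes by exon length and by main coding transcript (123 ± 0.714), but the second by coding length (270.2 ± 1.83). By main coding transcript the library ranges of Ctsz and Cst3, of Cst3 and Ctsd, and of Ctsb and Ctsh overlapped, and by coding length those of Cst3 and Ctsz did. Within libraries Ctsz was above Cst3 in 3 of 3 by main coding transcript (log2 difference 0.19 ± 0.039), and Cst3 above Ctsz in 3 of 3 by coding length (0.19 ± 0.039), so the order of this pair changed with the length. By main coding transcript Cst3 was above Ctsd, and Ctsb above Ctsh, in 2 of 3 libraries each, so neither pair has a set order. Ctsl was the highest of the 10 genes, and Ctsc, Ctss and Ctsk the lowest in that order, by all 3 lengths.

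**Figure D2:**
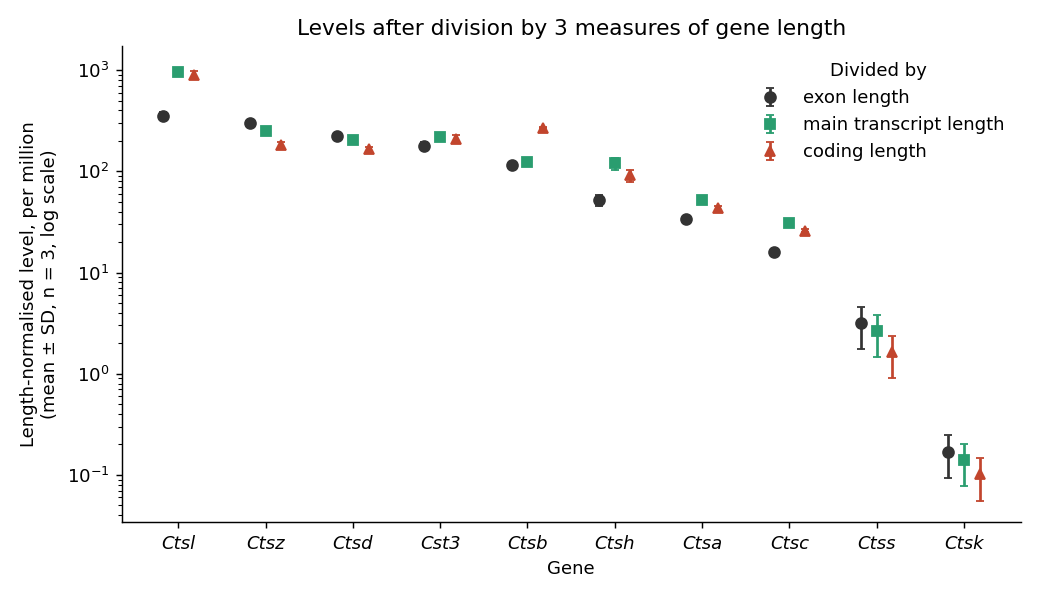
Length-normalised level (log axis; points are means and bars are SD over 3 libraries) of the 9 cathepsins and Cst3 after division by exon length, main coding transcript length and coding length. Ctsl is highest by each length, at 356, 968 and 899, whereas Ctsb moves from the fifth place by exon length to the second by coding length.

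Ctsl made up 32.3% ± 1.11 of the summed length-normalised level of the 9 cathepsins by exon length, 55.3% ± 1.09 by main coding transcript and 53.4% ± 1.35 by coding length. Within libraries it exceeded Ctsb by 1.61 ± 0.13 on the log2 scale per exon length (3.05-fold), and by 7.86-fold per main coding transcript. It exceeded Ctsd by 0.67 ± 0.087 per exon length (1.59-fold), and by 4.72-fold per main coding transcript and 5.37-fold per coding length. Each ratio lay above 1 in 3 of 3 libraries. With 3 libraries an exact two-sided sign-flip test cannot go below p = 0.25, so none is given.

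Cst3 RNA was lower than the summed RNA of the 7 cysteine cathepsins by every length. Per exon length the ratio of Cst3 to the summed cysteine cathepsins was 0.215 in C1, 0.206 in C2 and 0.213 in C3, with a mean log2 ratio of -2.24 ± 0.032. The libraries thus differed little in this ratio. It was 0.146 per main coding transcript and 0.143 per coding length. Against Ctsl alone Cst3 stood at 0.502-fold per exon length and 0.234-fold per coding length. Against Ctsb alone the direction depended on the length: Cst3 was 1.53-fold Ctsb per exon length, 1.77-fold per main coding transcript and 0.775-fold per coding length.

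Of 19 further cystatins, stefins and relatives 4 reached 1 CPM in every library, beside 33.8% of all symbols. Cstb, the cytosolic cystatin B, stood at 60.03 ± 1.90 CPM, and Ctla2b and Ctla2a, mouse proteins related to the cathepsin propeptide, at 5.95 ± 0.740 and 3.70 ± 0.491 CPM. Cst6, the secreted cystatin M, stood at 4.87 ± 0.462 CPM. Ahsg, Cst10 and Cst11 were among 7 with 0 counts, beside 15794 of all 34591 symbols. Cst3 was 0.607-fold Cstb per exon length and 0.892-fold per coding length, lower in 3 of 3 libraries by either length. The log2 difference per coding length, -0.17 ± 0.16, was close to its SD.

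Of 13 other cathepsin genes Ctsw and Ctso reached 1 CPM in every library, beside 33.8% of all symbols. Ctsw, a cathepsin known from cytotoxic lymphocytes and natural killer cells, had 12.8 (C1), 15.2 (C2) and 22.0 CPM (C3), and only the counting interval of C3 stood clear of the others. Ctso stood at 6.38 ± 0.961 CPM and Ctse at 3 counts, all in C3. The other 10, among them Cts3, Cts6 and Cts7 of the placental cluster, had 0 counts, beside 15794 of all 34591 symbols. Ctsf was among these 10 cathepsins. With a floor of 3 counts per library, counted Ctsl was at least 3430-fold above it per exon length in C1, 12612-fold in C2 and 10717-fold in C3. These bounds rise with library depth. Because the annotation and the handling of multi-mapping reads are not given, absent RNA and uncounted reads cannot be told apart at 0 counts.

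Spread between the libraries was tested over 13026 genes. The Poisson dispersion test asks whether a gene varied more than counting noise allows (chi-square, Benjamini-Hochberg over all genes tested, 0.05). It called 7 of the 9 cathepsin and cystatin genes tested, beside 39.3% of all genes. The test gains power with depth: among genes at 30 CPM or more, a limit chosen after seeing the data, it called 6 of 8 beside 57.2% of all such genes. Ctsl (adjusted p = 9.50e-169), Ctsh (2.07e-31), Cst3 (3.30e-13) and Ctsz (4.90e-12) had the smallest values, followed by Ctsd (2.96e-05), Ctss (0.00115) and Ctsa (0.00663). Ctsb (0.451) and Ctsc (0.571) did not pass.

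The differences were small in size. The highest library exceeded the lowest by 1.28-fold for Ctsh, 1.197-fold for Ctsl, 1.18-fold for Cst3, 1.12-fold for Ctsz, 1.11-fold for Ctsa and 1.07-fold for Ctsd. Ctss had 2.18-fold, and Ctsk 2.70-fold on 11 counts. With all libraries the Poisson test called 5118 of the 13026 genes tested. Without C3 it called 2 of the 9 genes, Ctsl and Ctss, beside 1667 of all 12970 genes then tested. Without C1 it called 6 of the 9 and no longer Ctss (adjusted p = 0.609), beside 4908 of 13337. With every library thinned to the depth of C1 it called 3, Ctsl, Ctsh and Cst3, beside 2611 of 12094. Without C2 the Poisson test still called 7 of the 9, beside 1761 of 12774. The calls over all genes thus also fell without C3 and after thinning. They fell without C2 as well, where the count of 7 did not change.

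Against genes of similar level, the edgeR quasi-likelihood F test called 0 of the 9 after Benjamini-Hochberg adjustment, beside 0.0691% of all genes tested. At an unadjusted p under 0.05 it held 3, beside 5.15% of all genes. These were Ctsh (edgeR adjusted p = 0.544, unadjusted p = 0.00639), Ctsl (adjusted p = 0.780, unadjusted p = 0.0158) and Ctss (adjusted p = 0.881, unadjusted p = 0.0292). Without a filter on low counts edgeR called Ctsh (adjusted p = 0.0493). Ctsb lay at the other end of the 9, with a quasi-likelihood dispersion of 0.0360 against 0.624 for the trend at its level. The edgeR F test asks about high spread only (unadjusted p = 0.944 for Ctsb), so its low spread was not tested. Ctsw, with an edgeR adjusted p of 0.215 and an unadjusted p of 9.49e-04, had smaller values than any of the 9.

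**Figure D3:**
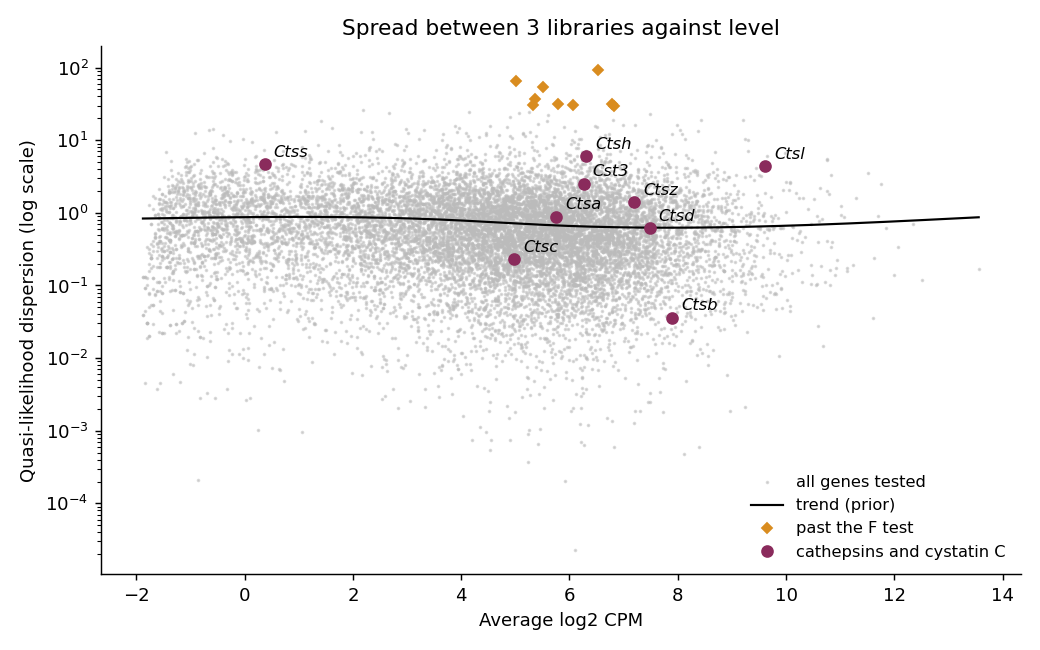
Quasi-likelihood dispersion between the 3 libraries (log axis) against average log2 CPM for all genes tested (grey), the 9 genes past the F test (diamonds), the trend over level (line) and the cathepsin and cystatin genes (labelled). Ctsh and Ctsl lie above the trend and Ctsb far below it, at 0.0360 against 0.624.

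The deviations ran in the same direction for the abundant cathepsins and Cst3. All 8 genes at 30 CPM or more were highest in C3. This limit was chosen after seeing the data, and Ctss, and Ctsk on 11 counts, lie below it and were highest in C1. C3 was highest for 32.5% of all genes at 30 CPM or more and for 34.0% of all genes tested. C1 was highest for 29.0% and 30.9% of these sets of genes, and C2 for 38.4% and 35.1%. C3 stayed highest for 8 of the 10 genes under 4 other scalings (TMM, DESeq2 and upper-quartile factors, and totals without the 10 most abundant genes). For 5 of the 8, Ctsl, Ctsh, Cst3, Ctsz and Ctsd, the 95% counting interval of C3 lay above those of C1 and C2. Relative to each gene's mean, the median over the 9 genes tested was 0.086 on the log2 scale in C3, -0.078 in C2 and -0.034 in C1. Over all genes tested it was -0.0039 in C3, 0.0014 in C2 and 0.0032 in C1. Ctsl deviated by 0.16 and Ctsh by 0.21 in C3, and Ctsb by 0.011. Wisp2 was also highest in C3. Its lowest library was C2, as for Ctsb, Ctsh, Ctsl, Ctsz and Cst3, whereas Ctsa, Ctsc and Ctsd were lowest in C1. Epithelial markers were also highest in C3 in 4 of 5 cases, with summed levels of 3430 (C1), 3461 (C2) and 3736 CPM (C3); the part of either in the C3 values was not tested.

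Ctss went the other way and was highest in C1, with a counting interval of 1.57 to 3.02 CPM above those of C2 (0.788 to 1.29 CPM) and C3 (0.871 to 1.505 CPM). Of the 9 leukocyte markers only 4 passed the filter on low counts. These 4 were highest in C1, beside 30.9% of all genes tested. The summed level of the 9 markers was 20.1 (C1), 9.83 (C2) and 10.2 CPM (C3). Lyz2, the macrophage lysozyme, had 9.42 (C1), 3.12 (C2) and 3.78 CPM (C3), and Emr1, a macrophage surface receptor, 1.76, 0.343 and 0.462 CPM. Ptprc, carried by leukocytes in general, ran against this with 1, 8 and 13 counts, and Cd3e, a T cell marker, had 0. Cd68, which marks macrophages, had 5.56 (C1), 5.15 (C2) and 4.27 CPM (C3). The part of leukocyte RNA in the Ctss values was not tested.

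**Figure D4:**
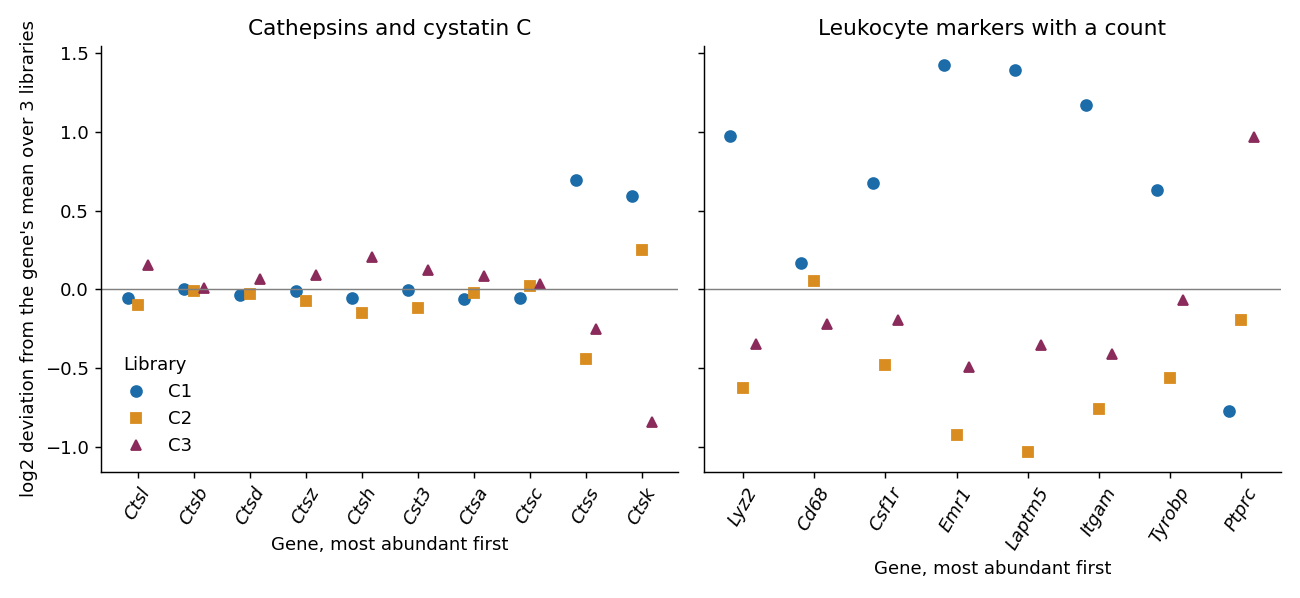
Deviation (log2) of a library's level from the mean log2 level of that gene, for the 9 cathepsins and Cst3 (left) and the leukocyte markers with a count (right). C3 (triangles) is highest for the 8 most abundant genes on the left, whereas Ctss is highest in C1 (0.69). On the right Lyz2 (0.97), Csf1r (0.68) and Emr1 (1.42) are also highest in C1. Cd68 deviates by only 0.17 there, and Ptprc is lowest in C1 (-0.77). Ctsk rests on 11 counts. With 0.5 counts added, a gene at 0 counts in every library (Cd3e, not shown) has 1.12 in C1, so C1 values of genes with few counts are raised.

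The genes that process, carry and accompany cathepsins were expressed. Legumain (Lgmn), the lysosomal protease that cleaves cathepsin precursors to their mature chains, stood at 87.1 ± 3.97 CPM, and was 0.312-fold Ctsl per exon length, 0.111-fold per main coding transcript and 0.0857-fold per coding length. Psap, the saposin precursor, which can bind the cathepsin D precursor, stood at 352 ± 18.4 CPM and, like Ctsd, was highest in C3 (374 CPM, against 343 in C1 and 341 in C2). Of the partners of cathepsin A, Glb1 stood at 47.8 ± 0.867 CPM and Neu1 at 10.8 ± 1.15 CPM. Neu1 was 0.253-fold Ctsa per exon length, and 0.205-fold and 0.232-fold by the other lengths. Glb1 was 1.39-fold Ctsa per exon length but 0.939-fold per main coding transcript and 0.650-fold per coding length. The annexin Anxa2 (1262 ± 34.5 CPM) and its partner S100a10 (391 ± 8.87 CPM), which bind the cathepsin B precursor at the cell surface, and the integrin chain Itgav (257 ± 3.27 CPM) each exceeded 100 CPM. Itgb3, a partner chain of Itgav named after its values were seen, had 4.71 (C1), 6.03 (C2) and 8.85 CPM (C3). Of the 8 maturation and partner genes it alone had an unadjusted p under 0.05 in the edgeR F test (adjusted p = 0.462, unadjusted p = 0.00433). Among all genes tested 5.15% did.

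All 10 genes of mannose 6-phosphate tagging and sorting reached 1 CPM in every library, beside 33.8% of all symbols, with a median of 38.6 CPM. Of the 10, 8 varied more than counting noise, beside 39.3% of all genes tested and 57.2% of those at 30 CPM or more. The large mannose 6-phosphate receptor Igf2r stood at 169.9 ± 11.6 CPM, the sorting adaptor Gga1 at 139.7 ± 6.59 CPM, the small receptor M6pr at 109.7 ± 4.86 CPM and Gnptab, the enzyme that adds the tag, at 94.5 ± 3.57 CPM. Igf2r was 0.694-fold M6pr per exon length, 0.438-fold per main coding transcript and 0.173-fold per coding length. Among 25 other lysosomal hydrolases all reached 1 CPM, with a median of 21.8 CPM. Gusb, the beta-glucuronidase, had the highest CPM at 188 ± 2.15 CPM. The ceramidase Asah1 stood at 138 ± 7.02 CPM and the alpha-glucosidase Gaa at 57.7 ± 0.794 CPM. Of these 25 genes 7 varied more than counting noise, a share of 28.0% beside 39.3% of all genes tested. All genes tested had a median of 29.2 CPM. The test gains power with depth, so 39.3% is not matched to the level of either list. In C3 11 of the 25 were highest, beside 34.0% of all genes tested, and their median log2 deviation in C3 was 0.0075. The edgeR F test called 0 in either list, adjusted or at an unadjusted p under 0.05.

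Lysosomal genes are known targets of the MiT/TFE transcription factors, which bind the E-box CACGTG. Of these factors Tfe3 stood at 50.04 ± 1.36 CPM, Mitf at 5.96 ± 0.442 CPM and Tfeb at 4.72 ± 0.345 CPM, and Tfec had 0 counts. The palindrome CACGTG, which reads the same on both strands, was searched in RefSeq promoter windows (build GRCm38.p6) that run from 250 bases before to 50 bases after an annotated start. Windows were found for 8 of the 10 genes, all but Ctsb and Ctsh, and 3 of the 8 (37.5%) held it: Ctsa, Ctsd and Ctsl. Of all genes with a window 8.09% held it. The longer core TCACGTG, on either strand and always overlapping CACGTG, was in Ctsa and Ctsd (25.0%), against 4.29% of all genes. CACGTG was also in 2 of 6 maturation and partner genes with a window, 4 of 8 mannose 6-phosphate genes and 4 of 18 other hydrolases. The matches are shown to compare their flanks, with those of the partners Lgmn and Glb1, 30 bases each, read 5′ to 3′ on the strand of the gene; capitals mark CACGTG.
Ctsa, chr2:164833749-164833778, plus strand: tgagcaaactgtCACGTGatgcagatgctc
Ctsa, chr2:164833766-164833795, plus strand: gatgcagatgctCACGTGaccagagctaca
Ctsd, chr7:142387908-142387937, minus strand: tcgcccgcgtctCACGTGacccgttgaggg
Ctsd, chr7:142388048-142388077, minus strand: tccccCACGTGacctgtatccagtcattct
Ctsl, chr13:64370739-64370768, minus strand: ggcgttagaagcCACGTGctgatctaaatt
Lgmn, chr12:102439124-102439153, minus strand: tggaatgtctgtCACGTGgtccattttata
Glb1, chr9:114401018-114401047, plus strand: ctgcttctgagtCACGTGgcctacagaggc

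The Ctsa matches begin 12 bases before and at base 6 after its downstream annotated start, and its other window held none. Those of Ctsd begin 98 and 245 bases before the start, that of Ctsl 236, that of Lgmn 49 and that of Glb1 48. The Ctsl match is the only one of the 7 outside the longer core on both strands. Cst3, Ctsc, Ctsk, Ctss and Ctsz had no CACGTG in theirs. These matches describe the letters of the windows and not binding, which was not measured.

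Some counts may hold reads of neighbouring genes or lack reads shared with them. The strand setting of the counting, which bears on opposite-strand genes only, is not given in the sources used here. In GENCODE M21 Fdft1, on the opposite strand, shares 12.8% of the exon length of Ctsb, Pltp and Neurl2 share 10.5% and 6.87% of that of Ctsa, and the antisense gene Gm47123 shares 26.8% of that of Ctsl. Nelfcd, also on the opposite strand, shares 0.694% of that of Ctsz. On the same strand, Gm49369 shares 34.4% of that of Ctsd, and the pseudogene Gm49230 shares 6.09% of that of Ctsl. Cst3, Ctsc, Ctsh, Ctsk and Ctss share no exon base with another annotated gene. Of the other genes named, M6pr has a pseudogene copy in the count table, with which reads could be shared.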

How the data were processed

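Whole-number read counts per gene symbol, not normalized, were deposited by the authors in 1 table of 34591 genes and 3 libraries; all rows name a gene. The submitters' processing notes name CASAVA 1.7, BWA, STAR and HTSeq and the build mm9, with no role or order; a strand-preserving poly(A) kit is named per the labels' protocols. The sources used here do not give the annotation or the handling of multi-mapping reads. Column names match no sample title, so columns were assigned to the group only.

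CPM used column totals; 1 count was worth 0.0567 (C1), 0.0149 (C2) and 0.0210 (C3) CPM. Intervals are exact 95% (Clopper-Pearson) and, like the floor of 3 counts, cover counting error only. Ratios were taken within libraries after adding 0.5 counts. GENCODE M21 (another build, used for lengths and overlaps only) gave exon lengths for 31489 symbols (91.0%). The main coding transcript is in CCDS, with the best support level and then the longest coding sequence. Spread was fitted with edgeR 4.0.16 (R 4.3.3) on all genes passing filterByExpr, with TMM scaling and an intercept only; DESeq2 1.42.0 gave alternative size factors. The tests were tested on simulated data. The members and lists were chosen with earlier results of these data known. Genes named are the members, preset pairs, and of each list the 4 most abundant and up to 3 at 0 counts, and Wisp2, except 1 that is not reported here; Ptprc and Itgb3 were added after their values were seen, and overlapping genes come from the annotation.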

Additional observations from a re-analysis of the deposited data

How the results depend on the processing

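TMM, DESeq2 and upper-quartile scaling moved the mean CPM of the 10 genes by at most 0.123% and left all 30 values within 1 SD. Taking the 10 most abundant genes out of the library sizes raised levels by up to 5.06%, beyond the SD for 3 genes. Of 17 log2 ratios, 11 kept their sign under every length, added count and omitted library. Relative to exon length, omitting the length correction reversed Ctsb/Ctsd (0.42, against -0.94), Ctsz/Ctsb (-0.71, against 1.36), Cst3/Ctsb (-1.64, against 0.61), Cst3/Cstb (0.35, against -0.72), Glb1/Ctsa (-0.17, against 0.48) and Igf2r/M6pr (0.63, against -0.53). Coding length reversed Ctsb/Ctsd (0.70), Ctsz/Ctsb (-0.56), Cst3/Ctsb (-0.37) and Glb1/Ctsa (-0.62), and main transcript length Glb1/Ctsa (-0.091). Ctsl/Ctsb was 2.97 with main transcript length, against 1.61. Ctsl/Ctsd was 2.13 uncorrected, 2.43 with coding length and 2.24 with main transcript length, against 0.67; Cst3 over the summed cysteine cathepsins was -4.06, -2.81 and -2.78 under the same settings, against -2.24. The Poisson count of 5118 genes was 2611 in thinned counts and between 1667 and 4908 with 1 library left out, and that of 7 members was 3 and between 2 and 7. The edgeR F test count of 9 genes was 14 with column totals, 171 without a filter, 0 with a robust prior (588 genes at an unadjusted p under 0.05) and between 3 and 52 with 1 library left out; its count of 0 members became 1 without a filter. The cause was not tested. Coding length from the RefSeq protein table was not run; GENCODE coding and main transcript lengths were added after seeing the data. No paired analysis was possible because there is 1 group.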

Other observations

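In 3 settings in which particular cathepsins are known to act, 0 of 5, 2 of 7 and 2 of 7 genes reached 1 CPM in every library, beside 33.8% of all symbols. Of 5 serine protease zymogens that cathepsin C activates, Prtn3 had 2 counts, both in C3. Ctsg, Elane and Gzma were among 4 with 0 counts, beside 15794 of all 34591 symbols. Of 7 genes of class II antigen presentation, where cathepsins S and L process the invariant chain, Cd74, the invariant chain itself, stood at 5.08 ± 0.533 CPM and the peptide loader H2-DMa at 2.82 ± 0.230 CPM. H2-Ab1 (0.288 CPM) and Ciita (0.0907 CPM) were below 1 CPM and H2-Aa had 0 counts. Of 7 osteoclast markers the phosphatase Acp5 stood at 20.4 ± 1.84 CPM and the transcription factor Nfatc1 at 23.7 ± 1.38 CPM, whereas Dcstamp and Atp6v0d2 averaged 0.0429 and 0.0378 CPM and Calcr and Ocstamp had 0 counts, beside the 11 counts of Ctsk. Acp5 and Nfatc1 varied more than counting noise (Poisson dispersion test, adjusted p = 3.04e-04 and 0.0264), beside 39.3% of all genes tested. Both were highest in C3, beside 34.0% of all genes tested. The edgeR F test did not call either of them (adjusted p = 0.995 for both).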
